A study of Mus musculus with 6 samples.

Results

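The heat shock and unfolded protein response was followed through 36 genes, chosen by name among the 53546 genes of the deposited count tables. They fall into 3 branches that are given apart. The first holds 13 cytosolic and mitochondrial heat shock proteins and cochaperones, the second 17 genes of the endoplasmic reticulum (ER), and the third 6 genes of the branch run by the transcription factors ATF4 and CHOP. All 36 were found and all 36 passed the filter on low counts. RNA came from non-parenchymal cells of the liver, the fraction that holds endothelial cells, Kupffer cells and other leukocytes and stellate cells. There were 3 libraries from wild type and 3 from SRA-/- mice, all male and all injected into the peritoneum with acetaminophen at 400 mg/kg, with RNA taken 6 h later. SRA-/- mice lack scavenger receptor A, a macrophage receptor encoded by Msr1. Every group had the drug, so a response to acetaminophen cannot be told apart in any value here. Strain, age, the disrupted exon and any pooling of mice are not stated in the labels, which name no Cre or transgene. The titles call the replicates biological but do not say that each came from its own mouse, so p-values measure the spread between these libraries.

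Heat shock factor 1 (HSF1) switches on chaperone genes when unfolded protein builds up in the cytosol. It binds heat shock elements, arrays of short inverted repeats in the promoters of those genes. Unfolded protein in the ER is sensed by IRE1, PERK and ATF6. IRE1 splices the mRNA of Xbp1, ATF6 is cut to an active transcription factor, and both lead to ER chaperones and to the machinery that removes misfolded protein. PERK phosphorylates eIF2alpha, which slows translation and favours the translation of ATF4, and ATF4 in turn drives Ddit3, the gene of CHOP. In liver these pathways are known for their part in drug and metabolic stress. Much of their control lies in splicing, cleavage and phosphorylation, which gene counts do not show.

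The libraries held 23757203 to 44003902 counts, and the lowest count of any of the 36 genes in any library was 131, for Asns. Values are counts scaled to library size as CPM, with TMM factors. Msr1 still gave reads in SRA-/- libraries, at 38.5 ± 4.43 CPM against 75.2 ± 37.5 CPM in wild type (SD, n = 3 each), with overlapping groups. Counts summed by gene do not tell intact transcripts from disrupted ones. Markers of the expected cells were present in every library, among them Stab2 of sinusoidal endothelium at 575 to 1028 CPM, Clec4f of Kupffer cells at 169 to 369 CPM and Lrat of stellate cells at 12.1 to 24.2 CPM. RNA of other cells was present too. All 20 listed hepatocyte genes were found, and together they took 4.25% to 10.3% of the counts in wild type and 7.09% to 12.4% in SRA-/- libraries. Wild type replicate 1 and SRA-/- replicate 3 had the highest hepatocyte shares. These were also the lowest libraries in the Kupffer cell and macrophage list and in the endothelial list. All 21 listed genes of pancreatic acinar cells were found as well, at 0.0529% to 0.110% of the counts in wild type and 0.000354% to 0.0379% in SRA-/- libraries.

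No gene of the 3 branches was called between the genotypes. By edgeR's quasi-likelihood test, 0 of 36 had an adjusted p under 0.05, where 0.0487% of the 20541 tested genes did (0.0341% higher and 0.0146% lower in SRA-/-). Likewise 0 of 36 had an unadjusted p under 0.05, where 3.22% did (2.32% higher and 0.896% lower). DESeq2 also called 0, with 0 at an unadjusted p under 0.05, against 3.51% of all tested genes. Limma-voom with quality weights called 0, with 2 at an unadjusted p under 0.05, Sdf2l1 and Chac1, against 11.7% of all tested genes. The adjusted p by edgeR was 0.9999 for each of the 36 genes. Log2 fold changes, given throughout as SRA-/- minus wild type, ran from -0.36 for Sdf2l1 to 0.65 for Hspa1a. They were above 0 for 22 and below 0 for 14 genes, where 48.3% of all tested genes were above 0, with a median of 0.04 beside -0.01 over all tested genes. In 1 gene, Atf4, every SRA-/- library lay above every wild type library, which is 2.78% of the 36 genes beside 7.3% of all tested genes without overlap (3.97% higher and 3.33% lower).

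The width of the intervals sets how much these nulls say. The 95% interval of the fold change, taken gene by gene, lay within 2-fold in either direction for 10 of 13 heat shock genes, 17 of 17 ER genes and 5 of 6 genes of the ATF4 branch. The 4 genes whose interval passed 2-fold were Hspa1a, Hspa1b, Dnajb1 and Chac1. For Hspa1a it ran from -0.86 to 2.16 on the log2 scale, so 3 against 3 libraries could not tell no difference from a level more than 2-fold higher in SRA-/- mice. These intervals use edgeR's standard error, which draws on the spread of all tested genes and not of the 1 gene alone. For Hspa1a that error was 0.66, against 0.88 by DESeq2 and 0.92 by edgeR with no filter on low counts. For Hsph1 the same errors were 0.35, 0.36 and 0.34. For the most variable genes the intervals may thus be too narrow, and the counts within 2-fold hold for this fit only. In RNA from a mixed fraction, fewer cells of a type and less RNA per cell cannot be told apart.

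**Figure D1:**
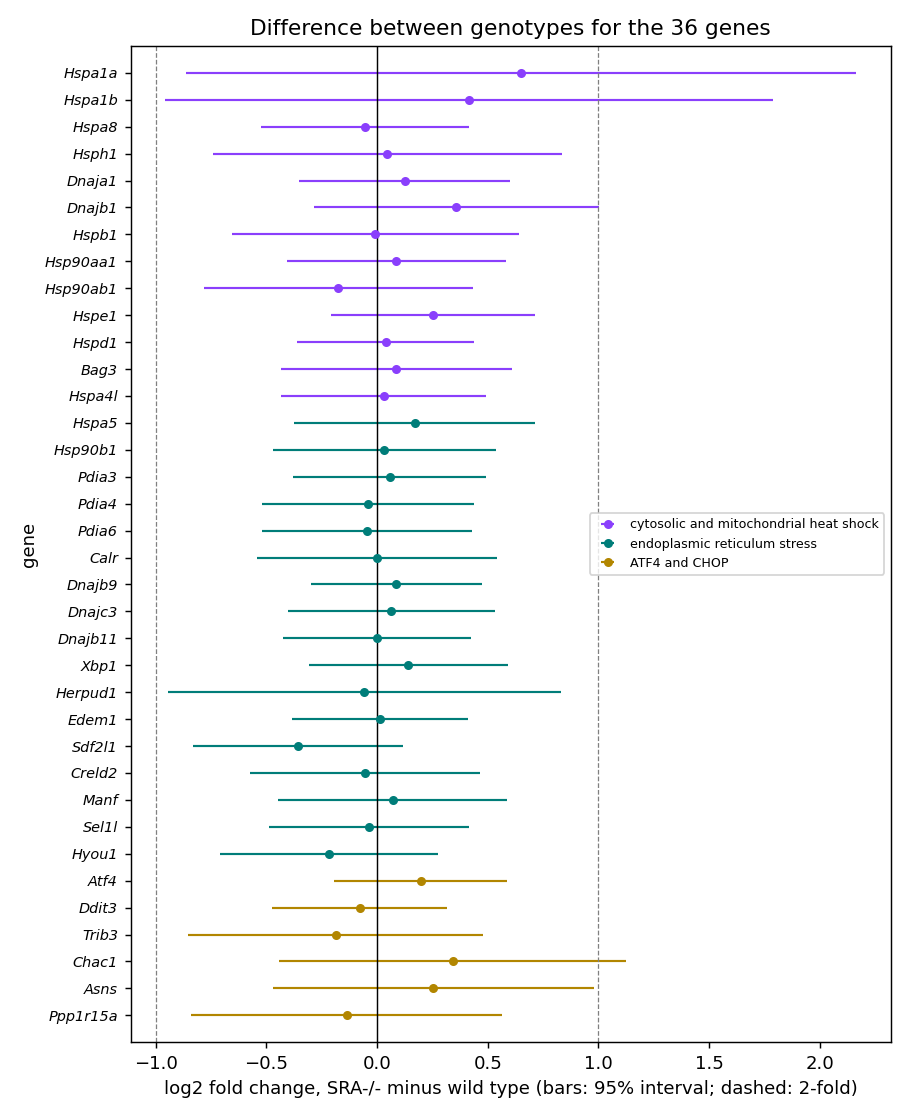
Log2 fold change (SRA-/- minus wild type, x axis) of each of the 36 genes (y axis), as points with 95% intervals from edgeR's quasi-likelihood fit on 3 against 3 libraries, coloured by branch, with dashed lines at 2-fold. All 36 intervals cross 0, and those of Hspa1a and Hspa1b are the widest.

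The heat shock branch had a median log2 fold change of 0.09, with 10 genes above and 3 below 0, and 0 of 13 past edgeR's test. Its largest differences were between replicates, in the stress-inducible HSP70 genes. Hspa1a and Hspa1b encode the inducible HSP70 proteins, which bind exposed hydrophobic stretches of unfolded proteins. The genes lie side by side on chromosome 17, at 35188166 to 35191132 and 35175412 to 35178214 on the minus strand (mm39). Their promoters are shown because both genes moved together across all libraries. The 250 bases before each start site, from RefSeq's GRCm38.p6 tables, are identical at 247 positions (98.8%). Capitals mark the match to the heat shock element GAANNTTC, which begins 104 bases before the start site in each.
Hspa1a chr17:34972157-34972406, minus strand: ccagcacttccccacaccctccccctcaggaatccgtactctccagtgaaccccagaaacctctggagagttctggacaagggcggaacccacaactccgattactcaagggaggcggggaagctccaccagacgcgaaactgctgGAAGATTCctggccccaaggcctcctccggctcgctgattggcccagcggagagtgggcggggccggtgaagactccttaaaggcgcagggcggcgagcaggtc
Hspa1b chr17:34959239-34959488, minus strand: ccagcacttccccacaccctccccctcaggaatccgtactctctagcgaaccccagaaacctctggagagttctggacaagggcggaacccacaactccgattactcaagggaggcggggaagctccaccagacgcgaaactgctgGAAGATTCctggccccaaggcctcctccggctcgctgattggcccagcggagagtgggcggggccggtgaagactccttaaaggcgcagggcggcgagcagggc

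Hspa1a stood at 41.5, 93.5 and 159 CPM in wild type (replicates 1, 2 and 3, the order used throughout) and at 169, 256 and 36.4 CPM in SRA-/- libraries. Hspa1b stood at 107, 237 and 344 CPM in wild type and at 345, 502 and 71.7 CPM in SRA-/- libraries. Both were highest in SRA-/- replicate 2 and lowest in SRA-/- replicate 3, so the SRA-/- group spanned the wild type range at both ends. The highest SRA-/- library exceeded the lowest 7.03-fold for Hspa1a and 6.998-fold for Hspa1b, and among wild type libraries the ratio was 3.83-fold and 3.22-fold. Within groups, the SD of log2 CPM was 1.25 for Hspa1a and 1.22 for Hspa1b, larger than in 99.6% of the 10744 tested genes with a mean of at least 5 CPM. The log2 fold change was 0.65 ± 0.66 (SE, n = 3 per group) for Hspa1a, with an unadjusted p of 0.354 by edgeR, and 0.42 ± 0.61 for Hspa1b, with 0.512. By featureCounts' defaults, reads that map to both copies are not counted, and Hspa1a shares exon sequence with the annotated gene Gm20481, so the split between the copies is uncertain. Without SRA-/- replicate 3 the log2 fold change of Hspa1a was 1.11 ± 0.48, and without SRA-/- replicate 2 it was 0.08 ± 0.67. Without wild type replicate 1 it was 0.30 and without wild type replicate 3 it was 1.19, none of these past edgeR's test after adjustment.

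Constitutive chaperones varied less than the inducible HSP70 pair. Hspa8, which encodes the constitutive HSC70, stood at 537, 616 and 610 CPM in wild type and at 594, 569 and 536 CPM in SRA-/- libraries. The highest library exceeded the lowest 1.15-fold. The within-group SD of log2 CPM, 0.09, was larger than in 4.60% of the 10744 tested genes with a mean of at least 5 CPM. Hsp90ab1, the constitutive cytosolic HSP90 and the most abundant of the 36 genes per length at 295 CPM per kilobase of exon, stood at 652, 1003 and 1155 CPM in wild type and at 863, 836 and 790 CPM in SRA-/- libraries. Its low value in wild type replicate 1 put the groups in overlap, with a log2 fold change of -0.17 ± 0.27 (unadjusted p 0.534 by edgeR). Hsp90aa1, the inducible form, stood lower, at 60.5 CPM per kilobase, and ran from 186 to 275 CPM.

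HSP70 works with J-domain proteins, which deliver clients, and with exchange factors, which reset its nucleotide cycle. Dnajb1, an inducible J-domain protein, stood at 223, 225 and 171 CPM in wild type and at 245, 375 and 174 CPM in SRA-/- libraries. SRA-/- replicates 1 and 2 lay above all wild type libraries and SRA-/- replicate 3 within their range. The log2 fold change was 0.36 ± 0.29 (unadjusted p 0.241 by edgeR). Hsph1, an HSP110 exchange factor, ran 2.65-fold from 87.5 CPM in SRA-/- replicate 3 to 232 CPM in SRA-/- replicate 2. Bag3, a cochaperone of selective autophagy, ran 1.71-fold, and Dnaja1, another J-domain protein, 1.47-fold. The small heat shock protein gene Hspb1 ran from 6.17 to 14.1 CPM between the same SRA-/- libraries as Hsph1. Hspa4l, a further HSP110 relative, was the least abundant per length at 2.30 CPM per kilobase.

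Hspe1 and Hspd1 encode HSP10 and HSP60, which fold proteins in mitochondria, and share 1 promoter from which they are read in opposite directions. They are shown for the longer element, GAANNTTC followed by NNGAA, which their shared promoter holds as 2 overlapping matches on opposite strands, on chromosome 1 in GRCm38.p6, with the units in capitals.
Hspe1 and Hspd1 chr1:55088059-55088071, minus strand: GAAggTTCtaGAA
Hspe1 and Hspd1 chr1:55088064-55088076, plus strand: GAAccTTCcgGAA
Hspe1 stood at 20.7, 21.0 and 19.3 CPM in wild type and at 24.6, 29.7 and 18.2 CPM in SRA-/- libraries, differing on the log2 scale by 0.25 ± 0.20 (unadjusted p 0.250). The SRA-/- libraries lay on both sides of the wild type range. Hspd1 ran only 1.34-fold, from 81.9 to 110 CPM. The exons of the pair overlap, and reads in the overlap were not counted.

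Promoters of 10 of the 13 heat shock genes were in the RefSeq table, and Hspa8, Hsp90aa1 and Hsp90ab1 were not. In windows from 250 bases before to 50 bases after a start site, on either strand, GAANNTTC was found for 8 of these 10, namely Bag3, Dnaja1, Hspa1a, Hspa1b, Hspb1, Hspd1, Hspe1 and Hsph1, and in 7.86% of all 32851 windows. The 3-unit form, which contains the shorter one, was found for Hspd1, Hspe1 and Hsph1, and in 0.603% of all windows. These genes were chosen as known members of the response, so the matches are not independent support for the choice. Nor are the genes separate cases, as Hspd1 and Hspe1 share the same matched bases and the Hspa1a and Hspa1b promoters are nearly identical. A gene was counted for a match in any of its windows, while the percentages count windows.

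**Figure D2:**
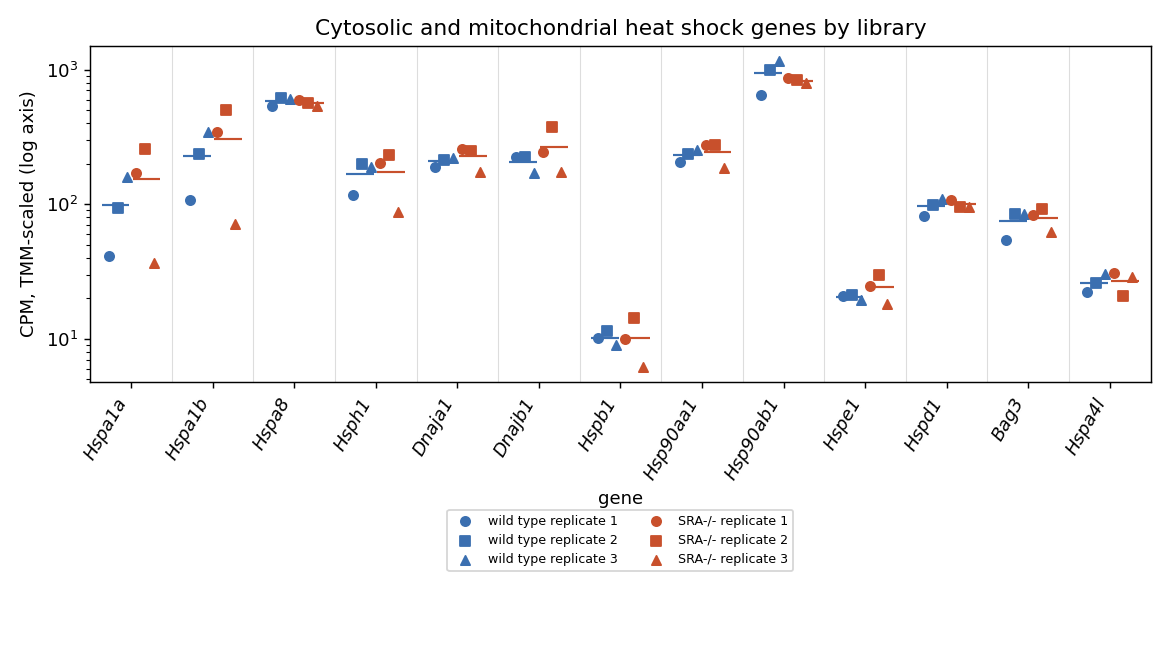
CPM (y axis, log scale) of the 13 heat shock genes (x axis) in each library, blue for wild type and orange-red for SRA-/-, with symbols for replicates and short lines at group means. Hspa1a and Hspa1b spread about 7-fold (7.03 and 6.998), while Hspa8 spreads 1.15-fold.

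The order of the libraries was shared by most of the branch. SRA-/- replicate 2 was highest in 8 of the 13 genes and SRA-/- replicate 3 lowest in 8. The share of all tested genes with these libraries at the extremes was not computed, so the order may not be particular to the branch. For 9 of the 13, the lowest pair of libraries was wild type replicate 1 and SRA-/- replicate 3. The median gene lay -0.24 and -0.31 log2 units from its mean over the 6 libraries in those 2 libraries, and 0.02, 0.17, 0.17 and 0.29 in the remaining libraries, namely replicates 2 and 3 of wild type and replicates 1 and 2 of SRA-/-. The same pair had the most hepatocyte RNA, at 10.3% and 12.4% of counts against 4.25% to 8.37% in the other 4 libraries. It had the least of the Kupffer cell and macrophage list, at 0.0745% and 0.108% against 0.133% to 0.222%. All 14 genes of that list were found. Immediate early genes, a sign of handling as well as of stress, were lowest in wild type replicate 1, at 0.628% of counts against 0.826% to 0.935% elsewhere. The part of the Kupffer cell and immediate early values in the heat shock values was not tested. With the hepatocyte list as a covariate the log2 fold change of Hspa1a was 1.04 ± 0.37, with an adjusted p of 0.839 by edgeR. The 40 other heat shock and cochaperone genes treated below shared the order of the libraries only in part. Their median gene lay -0.16 log2 units from its mean in wild type replicate 1, but -0.10 in SRA-/- replicate 2 and 0.03 in SRA-/- replicate 3.

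**Figure D3:**
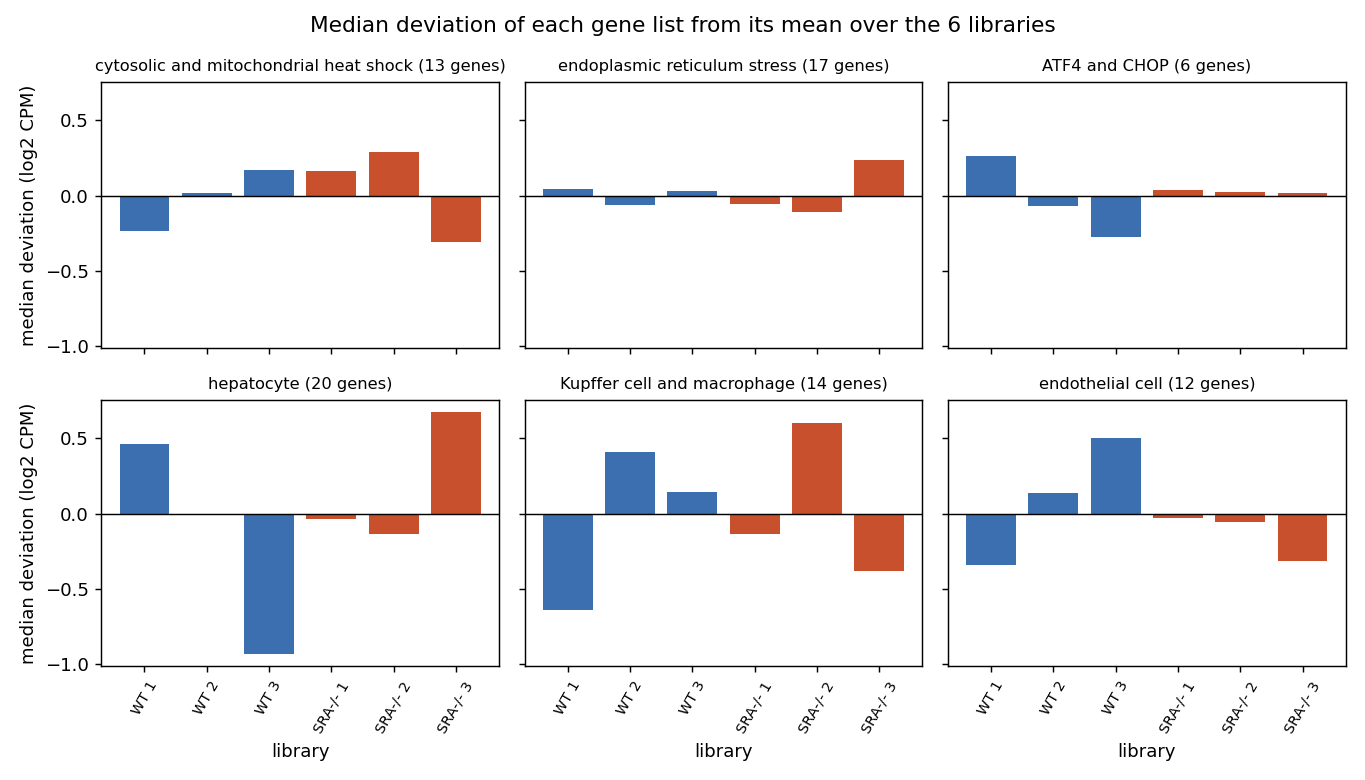
Median deviation of log2 CPM from each gene's mean over the 6 libraries (y axis), by library (x axis), for the 3 branches and for hepatocyte, Kupffer cell and endothelial marker lists, with bars in blue for wild type and orange-red for SRA-/-. Wild type replicate 1 and SRA-/- replicate 3 are low in the heat shock branch, high in the hepatocyte list and low in both other lists.

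The ER branch stood nearly level between genotypes, with a median log2 fold change of 0.00021, 9 genes above and 8 below 0, and 0 of 17 past edgeR's test. Fold changes of all 17 were under 0.5 in size on the log2 scale. Between replicates the branch also moved less than the heat shock genes, with a median within-group SD of log2 CPM of 0.22 against 0.31, beside 0.26 over the 10744 genes of at least 5 CPM. Its promoters are shown for a sequence element. The genes were chosen as known members of this response, so matches to the element are not independent support for the choice. The ER stress response element, CCAAT and CCACG with 9 bases between them, was found for 6 of the 15 ER genes in the table, and in 0.119% of all windows. Manf and Hyou1 were not in the table. The matches are written in the element's own direction, with its fixed letters in capitals.
Hspa5 chr2:34772025-34772043, plus strand: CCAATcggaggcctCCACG
Calr chr8:84847075-84847093, plus strand: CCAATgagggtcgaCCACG
Hsp90b1 chr10:86705638-86705656, minus strand: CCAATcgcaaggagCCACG
Hsp90b1 chr10:86705533-86705551, plus strand: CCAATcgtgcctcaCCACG
Pdia6 chr12:17266491-17266509, plus strand: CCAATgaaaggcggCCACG
Dnajc3 chr14:118937827-118937845, plus strand: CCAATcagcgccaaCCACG
Creld2 chr15:88819520-88819538, minus strand: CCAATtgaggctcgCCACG
The shorter form, ATTGG and CCACG with 1 base between them, was found for Herpud1 and Dnajb11, and in 0.0365% of all windows. The XBP1 site, searched as TGACGTGG, was found in 0.676% of all windows and for 0 of the 31 genes in the table. Only this spelling was searched, so sites that differ in a base were not counted. The 250 bases before the start sites of Hspa5 and Herpud1, the gene with the highest level per length and the gene with the widest spread of the branch, show each form in its place, with the whole match in capitals.
Hspa5 chr2:34771840-34772089, plus strand: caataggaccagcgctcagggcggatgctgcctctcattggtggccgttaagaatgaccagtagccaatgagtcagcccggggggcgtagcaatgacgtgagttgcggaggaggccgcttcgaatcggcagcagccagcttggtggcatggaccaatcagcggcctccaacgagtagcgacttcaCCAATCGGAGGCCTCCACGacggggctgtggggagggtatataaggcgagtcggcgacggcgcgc
Herpud1 chr8:94386179-94386428, plus strand: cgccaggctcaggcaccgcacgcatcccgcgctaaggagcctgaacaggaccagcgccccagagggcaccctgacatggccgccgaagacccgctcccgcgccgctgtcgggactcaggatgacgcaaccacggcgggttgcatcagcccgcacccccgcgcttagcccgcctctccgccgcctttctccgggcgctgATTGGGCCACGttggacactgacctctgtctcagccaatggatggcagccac

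Among ER chaperones, Hspa5 encodes BiP, the HSP70 of the ER lumen, which also holds the stress sensors inactive. The gene lies on chromosome 2 from 34661982 to 34667559 (mm39). It stood at 788, 783 and 926 CPM in wild type and at 1008, 765 and 1036 CPM in SRA-/- libraries. SRA-/- replicates 1 and 3 lay above all wild type libraries and SRA-/- replicate 2 below them, and the log2 fold change was 0.17 ± 0.24 (unadjusted p 0.4997). Calr, which encodes the lectin chaperone calreticulin, stood at 440.0, 457 and 456 CPM in wild type and at 429, 344 and 579 CPM in SRA-/- libraries. The wild type values differed 1.04-fold and the SRA-/- values 1.68-fold around nearly equal means, 451 ± 9.35 and 451 ± 119 CPM (SD, n = 3 each). Hsp90b1, the HSP90 of the ER, ran from 365 to 530 CPM, again lowest in SRA-/- replicate 2 and highest in SRA-/- replicate 3. Hyou1, an HSP110 exchange factor for BiP, stood at 321, 232 and 282 CPM in wild type and at 194, 258 and 265 CPM in SRA-/- libraries, differing on the log2 scale by -0.22 ± 0.22 (unadjusted p 0.344).

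Pdia3, Pdia4 and Pdia6, disulfide isomerases, had log2 fold changes of 0.06, -0.04 and -0.05. The ER J-domain genes Dnajb9, Dnajc3 and Dnajb11 had 0.09, 0.07 and 0.00021. Each of these 6 genes ran less than 2-fold over the libraries, the widest being Pdia6 at 1.64-fold. Xbp1, the transcription factor spliced by IRE1, stood at 139, 144 and 151 CPM in wild type and at 139, 141 and 199 CPM in SRA-/- libraries. Only SRA-/- replicate 3 stood apart, and the log2 fold change was 0.14 ± 0.20 (unadjusted p 0.497). Counts per gene do not separate spliced from unspliced Xbp1.

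Sdf2l1, a small ER protein that assists BiP, lies on chromosome 16 from 16948002 to 16950247 (mm39) and had the lowest edgeR p of the 36 genes. It stood at 8.44, 10.01 and 11.6 CPM in wild type and at 7.13, 8.94 and 7.39 CPM in SRA-/- libraries. SRA-/- replicate 2 lay inside the wild type range, so the groups overlapped. By edgeR the difference was -0.36 ± 0.21 on the log2 scale (unadjusted p 0.123), with an adjusted p of 0.360 by limma-voom with quality weights. Sdf2l1 and the ER genes Creld2 and Manf, both small secreted or lumenal proteins, were highest in wild type replicate 3. That library was also the lowest in 4 ER genes, Pdia3, Herpud1, Edem1 and Sel1l. It had the most acinar RNA of all libraries. Creld2 stood at 28.0 CPM there against 15.1 to 21.1 CPM elsewhere, and Manf at 33.3 against 19.4 to 27.1 CPM. The acinar list took 0.110% of counts in that library and 0.000354% to 0.0552% in the others, with lower shares in every SRA-/- than in every wild type library. Of its 21 genes, 0 were at 0 counts in all libraries, though Prss2 was at 0 in SRA-/- replicates 1 and 3. B and plasma cell genes took 0.0232% to 0.0373% in wild type and 0.0334% to 0.0488% in SRA-/- libraries, 12 of the 13 passing 6 counts in some library. The part of these cells in the ER values was not tested.

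Degradation of misfolded ER protein was represented by Herpud1, Edem1 and Sel1l. Herpud1, a membrane component of this machinery on chromosome 8 from 95113066 to 95122005 (mm39), was singled out for its spread after the values were seen. It stood at 467, 251 and 126 CPM in wild type and at 248, 296 and 267 CPM in SRA-/- libraries. The wild type libraries ran 3.72-fold and enclosed all SRA-/- libraries, which ran 1.19-fold. Its within-group SD of log2 CPM, 0.68, was larger than in 95.1% of the 10744 tested genes with a mean of at least 5 CPM. Among wild type libraries the order matched the hepatocyte share, 10.3%, 8.37% and 4.25%, but SRA-/- replicate 3, with 12.4%, stood at 267 CPM. The log2 fold change was -0.06 ± 0.39, and without wild type replicate 1 it was 0.53 ± 0.29 (adjusted p 0.734 by edgeR). Leaving out wild type replicate 3 gave -0.41 ± 0.28, and the hepatocyte list as a covariate gave -0.11 ± 0.25. Sel1l, the adaptor of the HRD1 ubiquitin ligase, ran 1.43-fold and Edem1, a lectin that picks misfolded glycoproteins, 1.27-fold.

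In 10 of the 17 ER genes SRA-/- replicate 3 was the highest library, and in 6 SRA-/- replicate 2 was the lowest. This is the reverse of their places in the heat shock branch. Here too the share of all tested genes with these libraries at the extremes was not computed. The median ER gene lay 0.24 log2 units above its mean in SRA-/- replicate 3, 0.11 below it in SRA-/- replicate 2 (a value of -0.11), and between -0.06 and 0.04 in the other 4 libraries. SRA-/- replicate 3 had the largest hepatocyte share and the smallest acinar share of the 6 libraries. Wild type replicate 1, second in hepatocyte share, was highest in 3 ER genes, Herpud1, Sel1l and Hyou1, and lowest in 3, Dnajb9, Xbp1 and Manf. The part of hepatocyte RNA in the ER values was not tested.

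**Figure D4:**
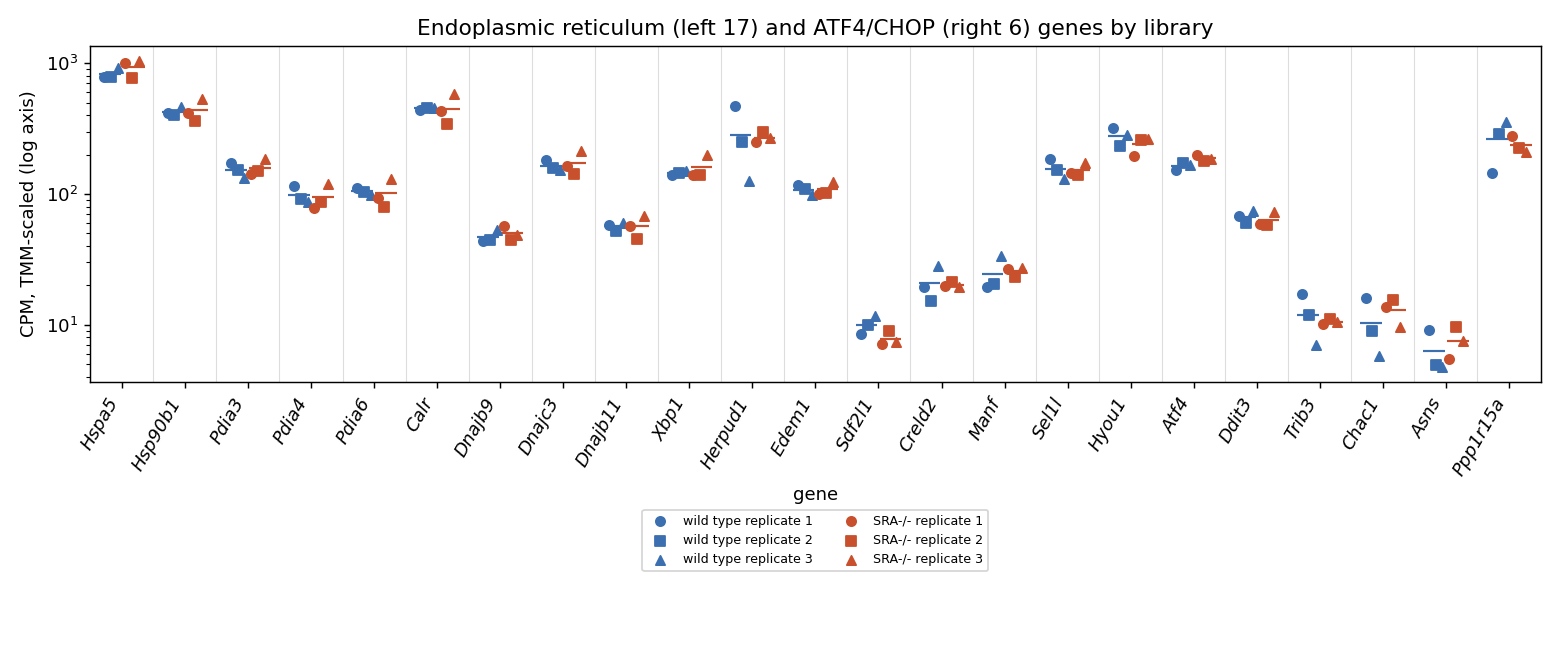
CPM (y axis, log scale) of the 17 ER genes and 6 ATF4 and CHOP genes (x axis) in each library, blue for wild type and orange-red for SRA-/-, with symbols for replicates and short lines at group means. SRA-/- replicate 3 is the top point in 10 ER genes, and Herpud1, Trib3, Chac1 and Ppp1r15a spread most among wild type libraries.

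In the ATF4 and CHOP branch 3 genes had log2 fold changes above and 3 below 0, with a median of 0.06 and 0 of 6 past edgeR's test. Atf4, on chromosome 15 from 80139385 to 80141742 (mm39), stood at 151, 173 and 166 CPM in wild type and at 198, 179 and 186 CPM in SRA-/- libraries. All SRA-/- values exceeded all wild type values, by a small margin, with means of 164 ± 11.2 and 188 ± 9.54 CPM (SD, n = 3 each). By edgeR this was a difference of 0.20 ± 0.17 on the log2 scale (unadjusted p 0.288). Its lowest SRA-/- value, 179 CPM, exceeded the highest wild type value, 173 CPM. ATF4 is controlled mainly in translation, which RNA counts do not show. Ddit3, which encodes CHOP, ran from 57.9 to 73.7 CPM with a log2 fold change of -0.08.

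The downstream genes of ATF4 varied more between replicates than Atf4. Chac1, a glutathione-degrading enzyme, stood at 16.0, 8.91 and 5.83 CPM in wild type and at 13.7, 15.5 and 9.70 CPM in SRA-/- libraries. Wild type replicate 1 was the highest of all and wild type replicate 3 the lowest, so the groups overlapped, with a log2 fold change of 0.34 ± 0.35 (unadjusted p 0.352). Leaving out wild type replicate 1 gave 0.83 ± 0.27 (adjusted p 0.571 by edgeR), and leaving out wild type replicate 3 gave 0.06 ± 0.30. Trib3, a pseudokinase that feeds back on ATF4 and CHOP, stood at 17.1, 11.9 and 6.95 CPM in wild type and at 10.1, 11.01 and 10.47 CPM in SRA-/- libraries. The SRA-/- values lay within the wild type range, with a log2 fold change of -0.19 ± 0.30 (unadjusted p 0.542). Asns, asparagine synthetase, stood at 9.20, 4.97 and 4.76 CPM in wild type and at 5.43, 9.71 and 7.48 CPM in SRA-/- libraries, differing on the log2 scale by 0.25 ± 0.32 (unadjusted p 0.449). Wild type replicate 3, lowest in all 3 of these genes, also had the smallest hepatocyte share. Wild type replicate 1, second in that share, was highest in Chac1 and Trib3. SRA-/- replicate 3, with the largest share, lay inside the wild type range in all 3 genes. The part of hepatocyte RNA in these values was not tested. With the hepatocyte list as a covariate the log2 fold change of Chac1 was 0.32 ± 0.31.

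Ppp1r15a encodes GADD34, which directs a phosphatase to eIF2alpha and so ends the translational block. With 85.0 CPM per kilobase it was the most abundant of the branch per length, ahead of Atf4 at 74.5. It stood at 144, 285 and 356 CPM in wild type and at 279, 224 and 211 CPM in SRA-/- libraries. Its order in wild type libraries was the opposite of that of Trib3 and Chac1, and the SRA-/- libraries lay inside the wild type range. The log2 fold change was -0.14 ± 0.31 (unadjusted p 0.670). Promoters of all 6 genes were in the table, and the ATF4 composite element, searched as TGATGNAAT, was found for 0 of them and in 0.965% of all windows. Only this spelling was searched, so other forms of the element, or sites outside the windows, would be missed. GAANNTTC was found for 1, Asns.

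Further genes of the same pathways showed the same lack of called differences. Of 40 other heat shock and cochaperone genes, 13 had log2 fold changes above and 27 below 0, with a median of -0.06. An unadjusted p under 0.05 was found for 0 of them in edgeR's test, for 1 in that of DESeq2 and for 2 with limma-voom. Over all tested genes these shares were 3.22%, 3.51% and 11.7%. Of the 40 genes, 0 were called by any of these tests. Hsf1 went from 44.7 ± 1.72 to 48.2 ± 2.37 CPM (SD, n = 3 each). Fkbp5, an HSP90 cochaperone and a glucocorticoid-responsive gene, had the lowest p of the list, with a log2 fold change of -0.35 ± 0.18 (unadjusted p 0.0839 by edgeR, while DESeq2 gave 0.0403 and limma-voom 0.0291). It stood at 287, 267 and 267 CPM in wild type and at 218, 220 and 206 CPM in SRA-/- libraries, and was the 1 gene of the 40 without overlap (2.5% of the list beside 7.3% of all tested genes, 3.33% of them lower). The other genes with low p were Hsf2 at -0.37 ± 0.25 and Fkbp4 at -0.22 ± 0.17. Of 37 other ER genes, 18 were above and 19 below 0, with a median of -0.01. An unadjusted p under 0.05 was found for 0 by edgeR or DESeq2 and for 1 with limma-voom, beside the same shares of all tested genes. The sensors Ern1, Eif2ak3 and Atf6 had log2 fold changes of -0.08, -0.05 and 0.07. The lowest p values belonged to Derl3 at -0.71 ± 0.52, Ube2j1 at -0.20 ± 0.18 and Selenos at 0.22 ± 0.22.

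Of 35 other genes of ATF4 and the integrated stress response, 23 were above and 12 below 0, with a median of 0.03, and 0 passed edgeR's test. At an unadjusted p under 0.05 there was 1, Slc7a11, by edgeR (2.86% of the list beside 3.22% of all tested genes). By DESeq2 there was also 1 (beside 3.51% of all tested genes), and by limma-voom there were 7 of 35 (beside 11.7%), with 0 called by either. Slc7a11 encodes the cystine transporter that supplies glutathione synthesis, and is also a target of NRF2. It stood at 2.33, 9.25 and 11.8 CPM in wild type and at 39.3, 11.01 and 25.2 CPM in SRA-/- libraries. SRA-/- replicates 1 and 3 lay above all wild type libraries and SRA-/- replicate 2 within their range. EdgeR gave a difference of 1.69 ± 0.57 on the log2 scale (unadjusted p 0.0150, adjusted p 0.9999), and adjusted p values were 0.186 by DESeq2 and 0.149 by limma-voom. SRA-/- replicates 1 and 3 also led the neutrophil list, at 0.0296% and 0.0274% of counts against 0.00692% to 0.0135% in the other 4 libraries, 12 of its 13 genes passing 6 counts in some library. Its part in the Slc7a11 values was not tested. Next by p were Eif4ebp1, a translation repressor, at 0.40 ± 0.18, and Atf5, a transcription factor of the same response, at -0.44 ± 0.21. Atf3, a stress factor that ATF4 induces, stood at 368 ± 31.6 and 370.2 ± 44.4 CPM (SD, n = 3 each).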

How the data were processed

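Libraries were built from total RNA with ribosomal RNA removed, per the labels' protocols. Sample titles give groups and replicates. The genome build was mm39, and the tools named are FastQC, STAR and featureCounts, per the submitters' processing notes. Per the file headers the deposited counts were made with featureCounts 2.0.2 on GENCODE vM26 exons, summed by gene name, without strand. For the aligner version and for trimming, nothing is stated in these sources. Mates were counted singly (68.5% to 71.9% of counts from 1 to 4 were even), so counting error exceeds what the counts give. The headers set no option to count reads that fit several places or genes, and 13 of the 36 genes have exons that overlap another gene.

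The counts were fitted in R 4.3.3 with edgeR 4.0.16 (TMM factors 0.896 to 1.08, filterByExpr, robust glmQLFit and glmQLFTest on group alone), with Benjamini-Hochberg adjustment over all 20541 tested genes and a threshold of 0.05. A standard error is the log2 fold change over the root of F. The common dispersion equals a coefficient of variation of 0.282. For 3 against 3 libraries an exact permutation test cannot go below p = 0.1. Alternatives used DESeq2 1.42.0, limma 3.58.1 and the settings in the closing section. The procedure was tested on simulated data. CPM in each library is given, per branch, for the 4 genes of smallest p and the 2 of highest counts per length. Up to 3 genes of each further list are named by p, and others were picked for their role. Genes, lists and tests were chosen with earlier results of these data known. Promoters came from RefSeq's GRCm38.p6 table, in which 31 of the 36 genes were found. GRCm38 coordinates are given for those sequences only. Figures were drawn with matplotlib 3.10.9.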

Additional observations from a re-analysis of the deposited data

How the results depend on the processing

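The count of the 36 genes called was 0 under every one of the 16 alternatives, and the branch medians stayed within the spread between replicates, from -0.0056 to 0.25 for heat shock, -0.11 to 0.10 for the ER and 0.0045 to 0.17 for ATF4 and CHOP. Over all tested genes, 10 were called (7 higher, 3 lower), against 68 by DESeq2 (57 higher, 11 lower), 99 by limma-voom with quality weights (73 higher, 26 lower), 32 with no filter on low counts (27 higher, 5 lower) and 5 with the replicate block (3 higher, 2 lower). With 1 library left out the count ran from 3 to 40, and most calls were lower only without SRA-/- replicate 2 (40 called, 12 higher and 28 lower). It was 3 without SRA-/- replicate 3 (3 higher, 0 lower) and 4 without SRA-/- replicate 1 or wild type replicate 2 (3 higher, 1 lower in each). The cause was not tested. No pairing by replicate number was seen: same-numbered deviations correlated at -0.287, -0.143 and -0.131, and 0 of 6 libraries correlated best with their own number. With 3 libraries per group of differing cell content, these correlations cannot exclude a shared preparation of same-numbered libraries.

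Of 576 single-gene alternatives, 84 turned the sign of an uncalled fold change, in 25 of the 36 genes, and 0 passed the threshold; the cause was not tested. By limma-voom the log2 fold change was -0.051 for Hspa1b, -0.26 for Hsph1, -0.077 for Bag3, 0.10 for Herpud1, -0.0015 for Edem1, 0.28 for Creld2 and 0.035 for Ddit3. With the replicate block it was -0.026 for Hsph1, -0.016 for Dnajb11 and 0.14 for Herpud1. With the hepatocyte list as a covariate it was 0.028 for Hspb1, -0.029 for Pdia3, -0.034 for Dnajc3, -0.043 for Dnajb11, -0.059 for Edem1, 0.071 for Creld2 and 0.14 for Ppp1r15a. Without both libraries of most hepatocyte RNA, an alternative chosen after seeing the data, it was 0.25 for Hspb1, -0.025 for Hspd1, -0.11 for Hspa4l, -0.14 for Hsp90b1, -0.015 for Dnajc3, -0.12 for Dnajb11, -0.062 for Xbp1, 0.54 for Herpud1, -0.011 for Edem1, -0.096 for Manf, 0.024 for Sel1l and 0.18 for Trib3. With library totals alone it was -0.0080 for Hspa4l, -0.0042 for Hsp90b1, -0.031 for Dnajb11 and -0.010 for Edem1. Calr was at 0.00077 with DESeq2 size factors, 0.00074 by DESeq2 and 0.00076 without mitochondrial, hepatocyte and acinar genes.

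With 1 library left out, the log2 fold change ranged from -0.13 to 0.88 for Hspa1b, -0.21 to 0.37 for Hsph1, -0.33 to 0.24 for Hspb1, -0.0022 to 0.25 for Hsp90aa1, -0.37 to 0.0039 for Hsp90ab1, -0.060 to 0.14 for Hspd1, -0.089 to 0.23 for Bag3 and -0.085 to 0.18 for Hspa4l. In the ER branch it ranged from -0.13 to 0.15 for Hsp90b1, -0.064 to 0.16 for Pdia3, -0.24 to 0.10 for Pdia4, -0.28 to 0.098 for Pdia6, -0.22 to 0.16 for Calr, -0.019 to 0.18 for Dnajb9, -0.11 to 0.19 for Dnajc3, -0.15 to 0.14 for Dnajb11, -0.051 to 0.23 for Xbp1, -0.41 to 0.53 for Herpud1, -0.094 to 0.086 for Edem1, -0.24 to 0.22 for Creld2, -0.061 to 0.36 for Manf and -0.15 to 0.12 for Sel1l. It ranged from -0.46 to 0.17 for Trib3 and -0.42 to 0.15 for Ppp1r15a. The lowest count, 131 for Asns, is the smallest behind any value given here for the 36 genes.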
